A study of Sus scrofa with 9 samples.

Results

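The transcripts of 10 cytokines and chemokines that stromal cells release (IL6, LIF, IL11, CCL2, CXCL8, CXCL12, CXCL14, CSF1, IL1A and IL33) were followed in porcine valvular interstitial cells (PVICs). The 10 genes were taken by symbol from a table of 19535 gene rows, and all 10 had enough reads to be tested. PVICs are the fibroblast-like cells inside the aortic valve leaflet. They were wild-type primary cells from pigs of 4 to 5 months, and the sources do not say how many animals were used or whether animals were pooled. RNA was sequenced from 3 libraries in each of 3 groups, all kept for 3 days per the labels. The control group grew in DMEM. The osteogenic medium (OIM) group received medium with insulin, ascorbic acid (50 µg/mL) and sodium dihydrogen phosphate (2 mmol/L), which is used to make these cells deposit calcium. The bFGF group received the same OIM with 50 ng/mL basic fibroblast growth factor, so it shares every agent of OIM. Nothing in the labels says that the 3 libraries of a group came from separate animals or cultures, so the p-values measure the spread between these libraries, which may be technical.

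The 10 genes belong to a few signalling families. IL6, LIF and IL11 are ligands of receptors that share the chain gp130 (gene IL6ST) and signal through JAK kinases and STAT3. CCL2 and CXCL8 attract monocytes and neutrophils. CXCL12 is the ligand of CXCR4 and of the scavenger receptor ACKR3, and CXCL14 is a chemokine that many resting epithelial and stromal tissues express. CSF1 keeps macrophages alive through CSF1R. IL1A and IL33 are members of the interleukin-1 family that are held in the cell and act as alarm signals when they leave it. In fibroblasts, transcription of many of these genes is known to respond to NF-kB and AP-1, and several of the mRNAs are short-lived because of AU-rich elements in the 3′ UTR.

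The gene counts of a library summed to between 57075793 and 67371523 for control and OIM, and to between 46773376 and 48270827 for bFGF. Levels are given in CPM, counts divided by library size, scaled by TMM, a correction for differences in composition, whose factors were 0.937 to 0.967 in control and OIM and 1.10 to 1.11 in bFGF. A gene was called when its adjusted p in edgeR was 0.05 or less and its log2 fold change was 0.5 or more in size. Over all 13662 genes tested, the median log2 fold change of bFGF against OIM was -0.0029 with TMM and 0.22 with library totals alone, so changes below are relative to the TMM scale. OIM replicate 2 was the highest of the OIM libraries in all 10 genes, whereas it was the highest in 36.7% of the 11846 genes with a mean of at least 1 CPM. Where leaving it out changed a call or the direction for one of the 10 genes, the value without it is given. In bulk RNA, fewer producing cells and less RNA per cell cannot be told apart.

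The question of the first comparison was whether OIM alters these transcripts, and of the second whether adding bFGF does. In OIM against control, 1 of the 10 genes was called higher (IL11) and 1 lower (CXCL14), where 1.49% and 0.864% of all genes tested were called (2.35% in either direction). In bFGF against OIM, 5 of the 10 were called higher (IL11, IL6, LIF, CXCL8 and CCL2) and 2 lower (CXCL14 and CXCL12), where 17.7% and 18.4% of all genes were called (36.2% in either direction). In bFGF against control, 6 were called higher, the same 5 and CSF1, and 2 lower (CXCL14 and CXCL12), where 18.9% and 20.0% of all genes were called (39.0% in either direction). On the adjusted p alone, 5 of the 10 passed in the first comparison and all 10 in each of the others, against 13.6%, 67.4% and 70.2% of all genes. The 3 bFGF libraries lay outside the range of the 3 OIM libraries in all 10 genes, and 72.1% of all genes showed such a separation. Control and OIM were separate in 3 of the 10 genes (28.8% of all genes), and control and bFGF in 9 of the 10 (73.7% of all genes), with IL1A overlapping. The median log2 fold change of the 10 genes was 0.07 in OIM against control, 0.74 in bFGF against OIM and 0.80 in bFGF against control. The last comparison shares its libraries with the others and is not independent of them.

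**Figure D1:**
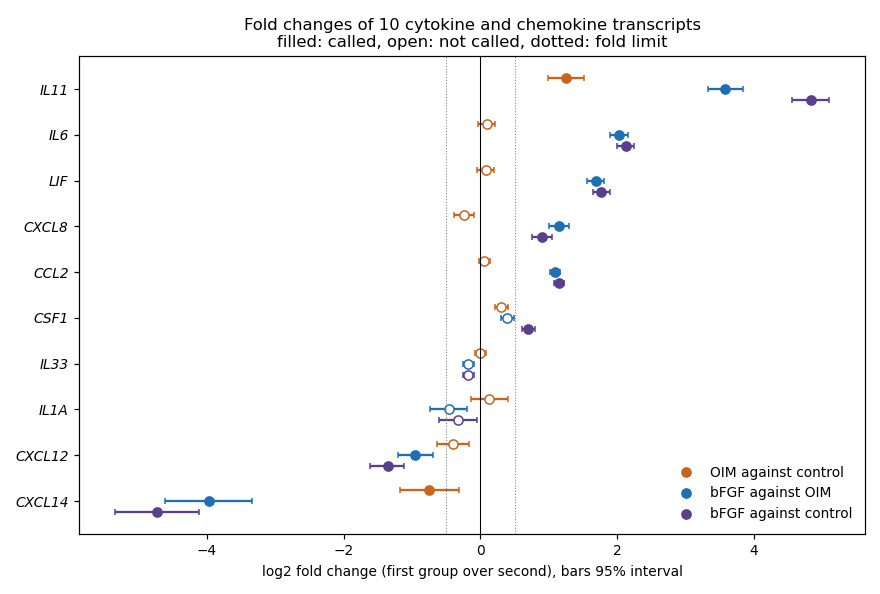
Log2 fold changes (x axis, first group over second) of the 10 genes in the 3 comparisons, with 95% intervals from edgeR's model, filled points for called genes and dotted lines at the fold limit of 0.5. IL11 stands at 3.58 and CXCL14 at -3.97 in bFGF against OIM, and 8 of the 10 OIM against control values are open points.

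Of the 10 genes, the gp130 ligands IL11, IL6 and LIF had the largest increases from OIM to bFGF. IL11 is encoded on the minus strand of chromosome 6 (59540482 to 59544909 of Sscrofa11.1). Its levels were 12.7, 14.3 and 12.5 CPM in the control libraries, 28.1, 41.5 and 24.04 CPM in OIM, and 370, 388 and 363 CPM in bFGF. The 3 groups did not overlap, and OIM replicate 2 was the highest below the bFGF libraries. IL11 was 2.38-fold higher in OIM than in control (log2 fold change 1.25, standard error 0.13, adjusted p = 1.41e-06 in edgeR). Without OIM replicate 2 the log2 difference was 0.99, and no left-out library of the 9 ended the call. From OIM to bFGF the rise was 11.9-fold (log2 fold change 3.58, standard error 0.12, adjusted p = 1.23e-15 in edgeR), larger in size than that of 98.9% of the genes tested, and on the log2 scale it was 3.86 without OIM replicate 2. From control to bFGF it was 28.4-fold.

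IL6 lies on the plus strand of chromosome 9 (91506421 to 91510830). It had 115, 117 and 107 CPM in control, 106, 136 and 118 CPM in OIM, and 491, 508 and 472 CPM in bFGF. Control and OIM overlapped, and all bFGF libraries were above both. The OIM to bFGF increase was 4.09-fold (log2 fold change 2.03, standard error 0.063, adjusted p = 4.14e-16 in edgeR). OIM and control differed by 0.09 (95% interval -0.04 to 0.22, adjusted p = 0.395 in edgeR), and without OIM replicate 2 by -0.01.

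LIF, a cytokine named for its action on leukemia cells, lies on the minus strand of chromosome 14 (47221540 to 47239513). It had 80.1, 88.9 and 78.1 CPM in control, 84.1, 95.8 and 80.9 CPM in OIM, and 288, 289 and 263 CPM in bFGF. As with IL6, OIM and control overlapped and bFGF stood above both. LIF was 3.22-fold higher in bFGF than in OIM (log2 fold change 1.69, standard error 0.059, adjusted p = 2.61e-15 in edgeR). In OIM against control the log2 difference was 0.08 (95% interval -0.05 to 0.20, adjusted p = 0.448 in edgeR), and 0.0027 without OIM replicate 2. Over the 9 libraries the log2 CPM of IL6 and LIF had a Pearson correlation of 0.998, given as a description, since the points are 9 libraries in 3 groups.

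**Figure D2:**
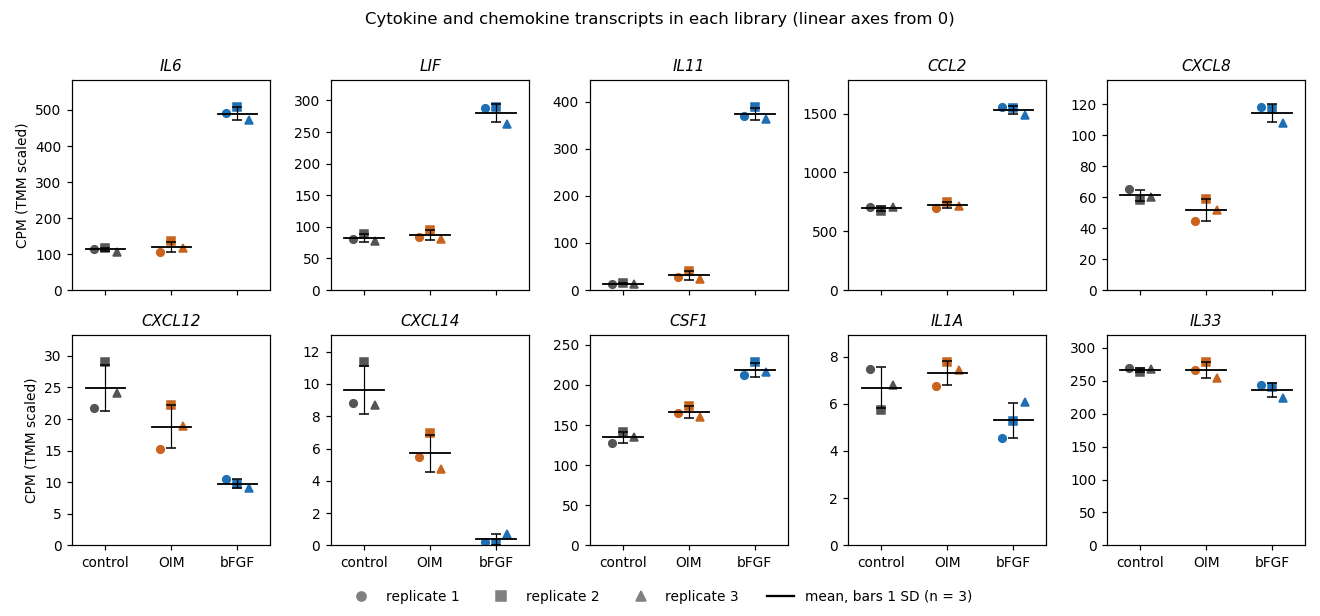
CPM (TMM scaled, linear y axes from 0) of each gene in the 3 libraries of control, OIM and bFGF, with the mean and 1 SD (n = 3) in black. IL6, LIF, IL11, CCL2 and CXCL8 are highest in all 3 bFGF libraries, CXCL12 and CXCL14 are lowest there, and the OIM square (replicate 2) is the top OIM point in every panel.

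Of the chemokines for monocytes and neutrophils, CCL2 is on the minus strand of chromosome 12 (40798109 to 40800013). It had 703, 671 and 709 CPM in control, 699, 751 and 718 CPM in OIM, and 1555, 1551 and 1488 CPM in bFGF. The bFGF libraries were clear of the others, while control and OIM overlapped. CCL2 rose 2.12-fold from OIM to bFGF (log2 fold change 1.08, standard error 0.036, adjusted p = 1.09e-15 in edgeR). Against control, OIM differed by 0.06 (95% interval -0.02 to 0.13, adjusted p = 0.33 in edgeR).

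CXCL8, the neutrophil chemokine interleukin-8, lies on the plus strand of chromosome 8 (69932646 to 69935861). It had 65.3, 58.2 and 59.8 CPM in control, 44.8, 58.5 and 51.7 CPM in OIM, and 118, 117 and 108 CPM in bFGF. OIM replicate 2 reached the lowest control library, and the other OIM libraries were below all controls. CXCL8 rose 2.21-fold from OIM to bFGF (log2 fold change 1.14, standard error 0.070, adjusted p = 1.43e-11 in edgeR). OIM against control stood at -0.24 (adjusted p = 0.028 in edgeR), which is inside the fold limit, and ran from -0.15 without OIM replicate 1 to -0.34 without OIM replicate 2.

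CXCL12 and CXCL14 went the other way. CXCL12 is on the plus strand of chromosome 14 (91516383 to 91543857). It had 21.8, 29.0 and 24.1 CPM in control, 15.3, 22.2 and 18.96 CPM in OIM, and 10.5, 9.69 and 9.06 CPM in bFGF. OIM replicate 2 overlapped the controls, and all bFGF libraries were below both groups. CXCL12 was 1.93-fold lower in bFGF than in OIM (log2 fold change -0.95, standard error 0.12, adjusted p = 6.96e-07 in edgeR) and 2.56-fold lower than in control. Without OIM replicate 2 the first of these was -0.80 on the log2 scale. In OIM against control the log2 difference of -0.40 (adjusted p = 0.0207 in edgeR) was under the fold limit, and without OIM replicate 2 it was -0.54 with an adjusted p of 0.000304 in edgeR and was called lower.

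CXCL14 is on the minus strand of chromosome 2 (137803988 to 137813118). Its levels were 8.81, 11.3 and 8.71 CPM in control, 5.46, 6.94 and 4.71 CPM in OIM, and 0.187, 0.173 and 0.731 CPM in bFGF. The groups stood in steps without overlap, and the bFGF values rested on 10, 9 and 38 counts. The gene was 15.7-fold lower in bFGF than in OIM (log2 fold change -3.97, standard error 0.30, adjusted p = 4.10e-10 in edgeR) and 26.4-fold lower than in control. BFGF replicate 3 held most of the remaining counts, and without it the log2 fold changes were -4.97 and -5.72. In OIM against control CXCL14 fell by 0.75 on the log2 scale (adjusted p = 0.0187 in edgeR), and without OIM replicate 2 the value was -0.92. That call was made in 6 of the 9 fits that left out 1 library and was lost without control replicate 2 (-0.62), OIM replicate 1 (-0.72) or OIM replicate 3 (-0.63), and in DESeq2, where the value was -0.75 with an adjusted p of 0.337.

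CSF1, the growth factor of macrophages, is on the minus strand of chromosome 4 (110178466 to 110198232). It had 127, 142 and 135 CPM in control, 165, 174 and 160 CPM in OIM, and 212, 228 and 216 CPM in bFGF. The 3 groups did not overlap. CSF1 was higher in bFGF than in control by 0.70 on the log2 scale (1.62-fold, standard error 0.045, adjusted p = 2.5e-11 in edgeR) and was called. The single steps were 0.30 for OIM against control (adjusted p = 9.51e-05 in edgeR) and 0.40 for bFGF against OIM (adjusted p = 1.48e-07 in edgeR), neither of which reached the fold limit. Scaling by library totals alone gave 0.62 for the second step, and it was called.

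The interleukin-1 family members had small differences. IL1A is on the plus strand of chromosome 3 (43718320 to 43731668) and had 7.49, 5.74 and 6.81 CPM in control, 6.75, 7.75 and 7.42 CPM in OIM, and 4.57, 5.29 and 6.06 CPM in bFGF. The bFGF libraries were below all OIM libraries but overlapped the controls. In bFGF against OIM the log2 difference was -0.46 (95% interval -0.74 to -0.19, adjusted p = 0.00402 in edgeR), just inside the fold limit, and it was called without OIM replicate 1 (-0.52) or bFGF replicate 3 (-0.57). It was -0.40 without OIM replicate 2 and -0.24 with library totals alone.

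IL33 is on the minus strand of chromosome 1 (215899830 to 215941944), in a span that also holds an annotated tRNA gene. It had 269, 263 and 268 CPM in control, 267, 278 and 255 CPM in OIM, and 243, 241 and 224 CPM in bFGF. The bFGF libraries were the lowest by a narrow margin, with a log2 difference of -0.18 against OIM (adjusted p = 0.000671 in edgeR). With library totals alone this difference was 0.04, so its direction depends on the scaling. OIM against control was at -0.0013 (95% interval -0.09 to 0.08, adjusted p = 0.988 in edgeR).

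To compare genes with each other, CPM were divided by the annotated exon length. In control, the order per kb of exon ran from CCL2 (933 ± 27.6 CPM per kb) through IL6 (100.4 ± 4.68), CXCL8 (41.1 ± 2.499), IL33 (33.7 ± 0.404), CSF1 (28.3 ± 1.502), LIF (9.08 ± 0.634), IL11 (6.78 ± 0.512), CXCL14 (5.59 ± 0.865) and CXCL12 (3.75 ± 0.550) to IL1A (1.69 ± 0.222 CPM per kb; SD, n = 3). Of these neighbours, IL11 and CXCL14 overlapped. In OIM the neighbours CSF1, CXCL8 and IL33 overlapped, as did CXCL14 and CXCL12. In bFGF, IL11 stood at 192 ± 6.70 CPM per kb, behind CCL2 (2058 ± 50.5) and IL6 (437 ± 15.9), and CXCL14 was last at 0.212 ± 0.185 CPM per kb (SD, n = 3). LIF overlapped IL33 there, and CXCL12 overlapped IL1A. With the length of the longest transcript in place of all exons, LIF was higher (13.7 in control and 46.8 CPM per kb in bFGF), and it overlapped CSF1 in bFGF (43.9 to 48.3 against 46.8 to 50.3) and not IL33 (28.7 to 31.2 CPM per kb), and IL11 in OIM.

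**Figure D3:**
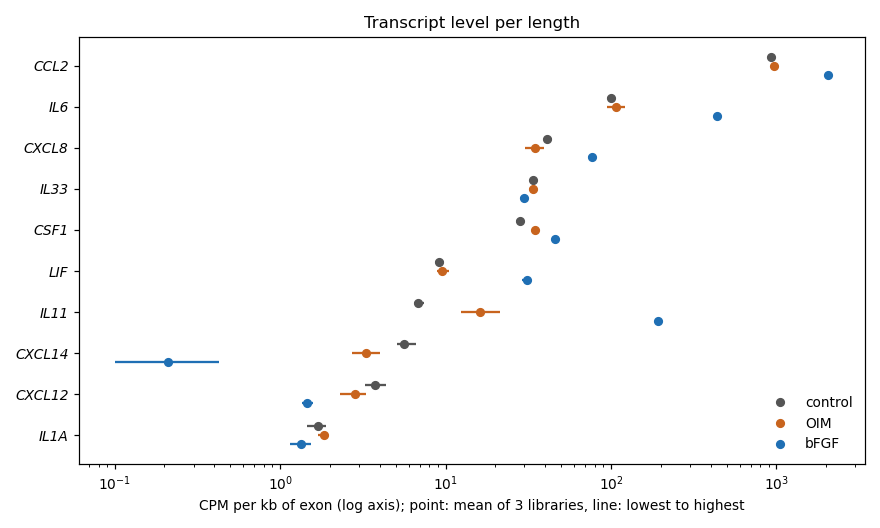
Level of each gene in CPM per kb of exon (log x axis), as the mean of 3 libraries with a line from the lowest to the highest library, for control, OIM and bFGF. IL11 moves from 6.78 in control to 192 in bFGF and CXCL14 from 5.59 to 0.212 CPM per kb, while IL33 and IL1A keep points close to each other.

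The start regions of the genes were searched for short motifs, from 250 bases before to 50 bases after the annotated start, with RefSeq models of Sscrofa11.1. The AP-1 motif TGANTCA, whose reverse complement is the same motif, occurred in 4 of the 10 genes (IL11, CXCL8, CXCL14 and CSF1) and in 6.35% of the 20664 promoters of coding genes. The kappa-B motif GGNNNTTCC, read on both strands, occurred in IL6, CXCL8 and CSF1 and in 24.3% of promoters. The count of kappa-B matches was thus near that share. Sites further from the start, or at other annotated starts of a gene, were not searched. Whether AP-1 or NF-kB acts on these genes here was not tested. The windows are shown because these are the factors that textbooks name for IL6, CXCL8 and IL11. Each is 30 bases, 5′ to 3′ on the strand of the gene, with the match in capitals.
IL11, AP-1, chr6:59544974-59545003, minus strand, match starting 83 bases before the start: ggcagggagggTGAGTCAggatgtgtcagg
CXCL8, AP-1, chr8:69932498-69932527, plus strand, 137 bases before: gaggagtcagaTGACTCAggtctgctctca
CXCL8, kappa-B, chr8:69932545-69932574, plus strand, 91 bases before: tgcgtagtgtGGAATTTCCtctgacatgat
IL6, kappa-B, chr9:91506340-91506369, plus strand, 71 bases before: atcaaatgtgGGATTTTCCcatgagtctca
CXCL14, AP-1, chr2:137813157-137813186, minus strand, 57 bases before: agaaatctcagTGAGTCAccgagtggttct
A match is a run of letters and not a measured binding site. The STAT motif TTCNNNGAA was found in CCL2, CXCL8 and IL1A (7.36% of promoters), the C/EBP motif TTNNGCAA on either strand in IL6 and IL33 (9.66%), and TATAAA on the strand of the gene in CXCL8, 31 bases before the start, and in IL33 (7.43%).

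The annotated 3′ UTRs of the longest coding transcripts were searched for AU-rich elements. The nonamer TTATTTATT occurred in LIF, IL11 and CXCL8, and in 7.01% of 18219 coding genes with a 3′ UTR of at least 50 bases. IL11 had 5 copies in 1174 bases. The pentamer ATTTA occurred at 14.3 per kb in IL6, 10.1 in CXCL8, 5.96 in IL11 and 5.33 in IL1A, against a median of 1.22 per kb over these genes. LIF had 2.76 per kb, CCL2 2.55, IL33 2.1, CSF1 1.89 and CXCL12 1.04 per kb, and CXCL14 had 0 pentamers in 1181 bases. The 30 bases with the most pentamers are shown for the 3 genes with a nonamer, as DNA on the strand of the gene, with the pentamers in capitals. The window of LIF holds neither of its 2 nonamers.
IL11, chr6:59541601-59541630, minus strand: cttcaaagccagttcttATTTATTTATTTA
CXCL8, chr8:69935239-69935268, plus strand: agtgtaATTTAttcacttATTTAttATTTA
LIF, chr14:47221620-47221649, minus strand: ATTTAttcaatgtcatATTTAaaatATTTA
AU-rich elements bind decay factors such as tristetraprolin (ZFP36). Of 9 regulators of mRNA decay tested, which include ELAVL1, a protein that stabilises such mRNAs, 1 was called lower in bFGF than in OIM, ZFP36, a share below the 18.4% of all genes called lower. It had 21.0, 21.6 and 20.4 CPM in control, 24.4, 19.2 and 19.9 CPM in OIM, and 11.9, 12.2 and 11.5 CPM in bFGF (log2 fold change -0.83, adjusted p = 4.07e-08 in edgeR). The bFGF libraries lay below all others. The other 8 were not called in that comparison, with log2 differences from -0.39 to 0.49, though library totals alone had 2 called higher, and KHSRP, an activator of decay, was called higher in bFGF than in control (0.53). Between OIM and control, edgeR and DESeq2 each called 0 of the 9. An unadjusted p under 0.05 was found for 3 and an adjusted p that passed for 3, and 0 of them reached the fold limit.

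The receptors of these ligands were measured in the same libraries. Of 15 listed receptor genes 10 were tested, LIFR and CXCR1 were not analysed here, and ACKR1, CCR2 and CXCR2 had too few counts. In bFGF against OIM, 6 were called higher and 1 lower (17.7% and 18.4% of all genes), with a median log2 fold change of 0.64. The gp130 chain IL6ST had 934, 941 and 909 CPM in control, 861, 952 and 865 CPM in OIM, and 1390, 1327 and 1305 CPM in bFGF, so every bFGF library was above the rest. It rose by 0.59 on the log2 scale from OIM to bFGF (standard error 0.039, adjusted p = 5.24e-11 in edgeR). The ligand-specific chains did not pass the limits, with IL11RA at -0.40 (adjusted p = 4.85e-06 in edgeR) and IL6R at 0.26 (adjusted p = 0.0985 in edgeR).

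The receptor genes of the interleukin-1 family included the largest changes of the list. IL1R2, a decoy receptor that binds interleukin-1 without signalling, had 0.936, 0.742 and 1.37 CPM in control, 0.609, 1.41 and 0.770 CPM in OIM, and 6.68, 9.07 and 6.62 CPM in bFGF, a 7.88-fold rise over OIM (adjusted p = 3.43e-09 in edgeR). IL1RAP, the accessory chain shared by IL1R1 and the IL33 receptor, had 13.0, 14.4 and 14.0 CPM in OIM and 56.1, 55.2 and 57.2 CPM in bFGF, a 4.06-fold rise (adjusted p = 2.91e-16 in edgeR). IL1RL1, the IL33 receptor, had 0.624, 0.347 and 0.653 CPM in control, 1.09, 1.12 and 0.770 CPM in OIM and 3.10, 2.90 and 3.19 CPM in bFGF, a 3.08-fold rise over OIM (adjusted p = 1.66e-05 in edgeR). IL1R1, the signalling receptor for IL1A, rose 1.62-fold (119 ± 6.47 to 193 ± 3.68 CPM; SD, n = 3). In these 4 genes no bFGF library overlapped an OIM library, a separation that 72.1% of all genes showed.

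The receptors of CXCL12 moved in opposite directions. ACKR3 had 129, 154 and 134 CPM in control, 107, 111 and 105 CPM in OIM, and 32.2, 31.9 and 34.6 CPM in bFGF, and was 3.27-fold lower in bFGF than in OIM (log2 fold change -1.71, adjusted p = 1.44e-15 in edgeR). It thus had its lowest values in the group in which CXCL12 also had its lowest. CXCR4 had 1.26, 1.84 and 1.07 CPM in OIM and 2.31, 2.35 and 2.60 CPM in bFGF, a 1.73-fold rise (adjusted p = 0.00507 in edgeR). Receptors of leukocytes were scarce. CCR2 and CXCR2, the receptors of CCL2 and CXCL8, had 0 counts in all 9 libraries, which allows up to 3 counts or 0.0461 to 0.0577 CPM per library. CSF1R averaged 0.338 ± 0.0557 CPM in OIM and, with bFGF, 0.215 ± 0.0397 CPM (SD, n = 3). These floors cover counting error only. Between OIM and control, edgeR called 0 of the 10 receptors and DESeq2 called 1, and 1 passed the fold limit on its unadjusted p.

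**Figure D4:**
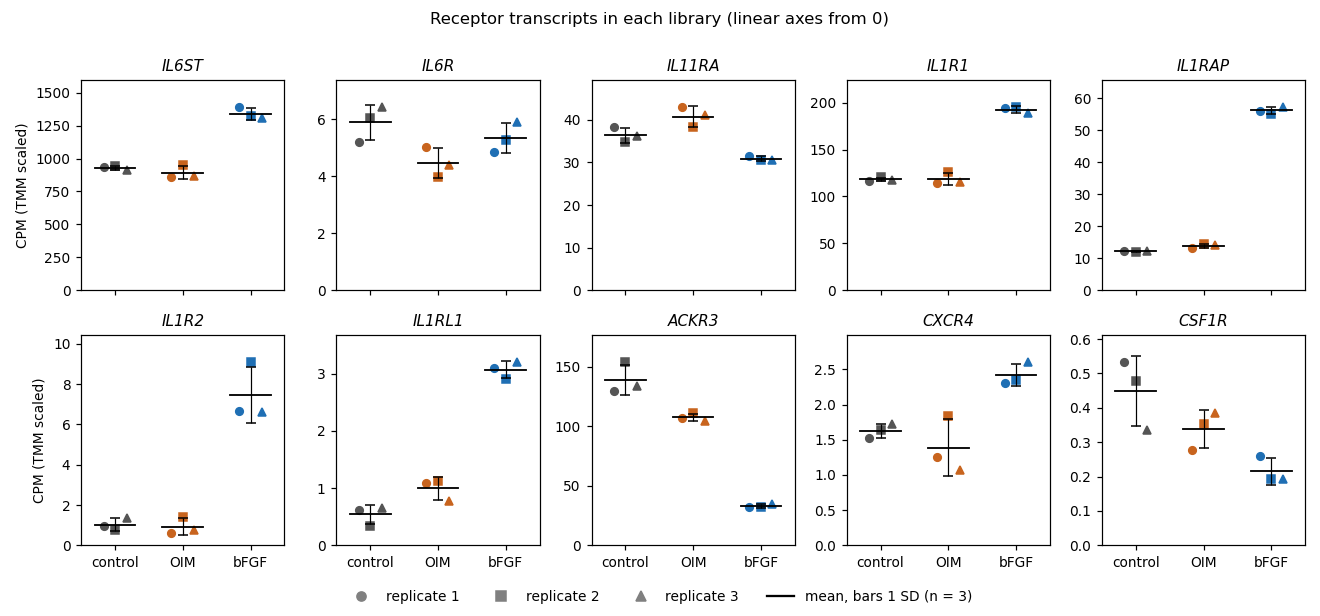
CPM (TMM scaled, linear y axes from 0) of the 10 tested receptor genes in the 3 libraries of control, OIM and bFGF, with the mean and 1 SD (n = 3) in black. IL6ST, IL1R1, IL1RAP, IL1R2, IL1RL1 and CXCR4 are higher in the bFGF libraries than in the OIM libraries, and ACKR3 is lower.

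Genes of the gp130 and STAT3 pathway were read beside their ligands. Of 19 tested, bFGF against OIM had 0 called higher and 10 called lower, where 17.7% and 18.4% of all genes were called, and a median log2 fold change of -0.51 (-0.0029 over all genes). On the unadjusted p 1 more passed the fold limit, SOCS1, another feedback inhibitor, which was higher in bFGF (0.73, adjusted p = 0.0599 in edgeR), and DESeq2 called 10. CEBPD, a transcription factor gene that STAT3 activates, had 474, 497 and 492 CPM in control, 384, 361 and 378 CPM in OIM, and 82.4, 87.4 and 85.6 CPM in bFGF (log2 fold change -2.14, adjusted p = 2.31e-19 in edgeR). The kinase gene PIM1 fell by 1.58 and OSMR, the receptor chain for oncostatin M, by 1.57, and in both genes the bFGF libraries lay below all others. Others called lower included BCL6, CEBPB, STAT3 and JAK1, and, in 7 and 6 of the 9 fits without 1 library, BCL3 and JAK2. With library totals alone the list had 2 called higher and 7 lower, where 3733 and 1694 of the 13662 genes were called. SOCS3, the feedback inhibitor of gp130 signalling, had 43.1 CPM in OIM and 37.3 CPM in bFGF on average and a log2 difference of -0.21, about the size of the shift between scalings given above. Against control, bFGF had 8 of these genes lower and 1 higher, MYC (0.64), where 20.0% and 18.9% of all genes were called, and library totals alone gave 7 lower and 3 higher. Between OIM and control, edgeR and DESeq2 each called 0 of the 19. An unadjusted p under 0.05 was found for 8 and an adjusted p that passed for 4, and 0 of them reached the fold limit.

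In the NF-kB pathway and its targets, bFGF against OIM had 2 of 26 called higher and 8 called lower, with a median of -0.27. With 10 of 26 called, the total was near the 36.2% of all genes called in either direction. The split depends on the scaling, since library totals alone gave 5 higher and 3 lower, where 3733 and 1694 of the 13662 genes were called with that scaling. Against control it gave 5 higher and 4 lower in place of 2 and 9 (3931 and 1840 of all genes). The genes that rose were PTGS2, the inducible prostaglandin synthase (0.70), and IRAK1, a kinase of interleukin-1 receptor signalling (0.67). PTGS2 had 245, 279 and 244 CPM in OIM and 394, 428 and 429 CPM in bFGF. Those that fell most were IRAK2 (-1.85), the nuclear regulator NFKBIZ (-1.40) and the inhibitory kinase IRAK3 (-1.05), each without overlap. NFKBIZ had 253, 220 and 262 CPM in OIM and 91.8, 93.9 and 92.9 CPM in bFGF. The subunits NFKB1 (0.03) and RELA (-0.25) were not called. Between OIM and control, edgeR and DESeq2 each called 0 of the 26. An unadjusted p under 0.05 was found for 12 and an adjusted p that passed for 8, and 0 of them reached the fold limit.

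**Figure D5:**
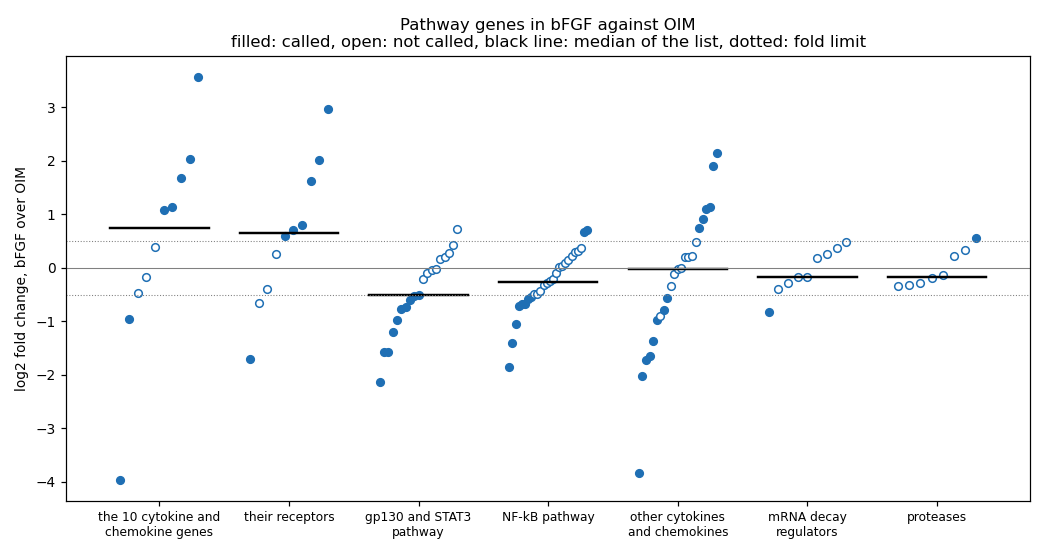
Log2 fold changes of bFGF over OIM (y axis) for the tested genes of each list, with filled points for called genes, a black line at the median of the list and dotted lines at the fold limit. The 19 gp130 and STAT3 genes have, on the TMM scale, a median of -0.51 and no called gene above 0 (2 with library totals alone), beside a median of 0.74 for the 10 cytokine and chemokine genes and 0.64 for the 10 receptors.

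Of 40 other cytokines and chemokines listed, 23 were tested, and 6 were called higher and 8 lower in bFGF against OIM (17.7% and 18.4% of all genes), with a median of -0.01. KITLG, the ligand of the receptor KIT, had 148, 148 and 151 CPM in control, 197, 237 and 185 CPM in OIM, and 927, 890 and 923 CPM in bFGF (log2 fold change 2.15, adjusted p = 1.08e-16 in edgeR). The neutrophil chemokines CXCL2 (1.90) and AMCF-II (1.14) rose along with CXCL8. CXCL2 had 13.7, 15.6 and 11.9 CPM in OIM and 49.1, 56.2 and 48.5 CPM in bFGF, with no overlap. IL18, which was higher in bFGF than in control by 1.18, is another member of the interleukin-1 family. The other gp130 ligands tested, CLCF1 (0.49) and CNTF (0.20), were not called in bFGF against OIM, and against control they were called higher at 0.52 and 0.56.

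In the other direction IL1B had 3.95, 3.37 and 2.495 CPM in control, 1.61, 3.13 and 1.96 CPM in OIM, and 0.783, 0.557 and 0.693 CPM in bFGF (log2 fold change -1.72 against OIM, adjusted p = 2.03e-05 in edgeR). The lymphoid chemokine CCL19 fell by 2.02. CCL4 had 5 to 19 counts in OIM and at most 2 with bFGF. Its OIM mean was 3.64 times the floor of 3 counts in the bFGF libraries, a ratio that leaves out the counting error of OIM. Between OIM and control, 3 of the 23 were called (2.35% of all genes), all lower in OIM, namely CXCL10 (-0.78), CX3CL1 (-0.59) and IL34 (-0.57), the second ligand of CSF1R. The CXCL10 call was made in 6 of the 9 fits without 1 library and the other two in all 9, and DESeq2 called 4 of the 23. IL34 had 32.7, 33.8 and 32.1 CPM in control, 22.9, 20.9 and 22.7 CPM in OIM, and 8.95, 7.82 and 8.85 CPM in bFGF. Its groups did not overlap, and they stood in the reverse order of those of CSF1.

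Proteases that release or trim these proteins were also read. Of 8 tested, 1 was called higher in bFGF than in OIM, a share below the 17.7% of all genes, and 2 with library totals alone. It was DPP4 (0.55), which cleaves CXCL12, with 21.1, 20.3 and 21.5 CPM in OIM and 29.8, 30.9 and 31.7 CPM in bFGF. The calpain genes CAPN1, CAPN2 and CAPNS1, whose products cut the precursor of interleukin-1 alpha, had log2 differences of -0.28, -0.33 and -0.34. These were not called, and they are not far above the shift between scalings given above. All 7 proteases not called passed on the adjusted p alone. Between OIM and control, edgeR and DESeq2 each called 0 of the 8. An unadjusted p under 0.05 was found for 1 and an adjusted p that passed for 0, and 0 of them reached the fold limit.

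For each gene, the genes with the most similar pattern were found by the Pearson correlation of log2 CPM over the 9 libraries. The closest were POLR1A (0.999) and POSTN (0.999) for IL6, PTGS1 (0.999) and CDCA3 (0.998) for LIF, LAMB1 (0.999) and CCND1 (0.999) for IL11, UGDH (0.999) and FAM213A (0.999) for CCL2, and RPS6KA3 (0.996) and DNAJA1 (0.995) for CXCL8. They were ZC3H11A (0.988) and BSCL2 (0.988) for CXCL12, ADAMTS1 (0.995) and TMEM184A (0.992) for CXCL14, SUN1 (0.997) and CNOT3 (0.996) for CSF1, VPS37B (0.944) and IFT81 (0.931) for IL1A, and CCDC87 (0.982) and RETREG1 (0.972) for IL33. The points are the same 9 libraries in 3 groups throughout, and no p is given.

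The identity of the cells was checked with marker genes. All 10 markers of valvular interstitial cells and fibroblasts were above 1 CPM in every library, with sums of 65050 to 70430 CPM in control, 61640 to 64450 in OIM and 38870 to 39220 in bFGF. In bFGF against OIM, COL1A1 (25050 to 9886 CPM), COL1A2 (17750 to 8849 CPM), COL3A1 and DCN were called lower, while VIM (1.58-fold), POSTN (2.74-fold) and S100A4 (1.77-fold) were called higher. Of all genes, 18.4% were called lower and 17.7% higher in that comparison. Markers of T and B cells summed to at most 0.952 CPM in a library and epithelial markers to at most 0.220, and CD3D, CD3E, CD2 and MS4A1 had 0 counts. The 11 macrophage and leukocyte markers summed to 15.9 to 19.6 CPM in control, 17 to 18.2 in OIM and 9.44 to 11.0 in bFGF. Near the share of all genes called lower (18.4%), 2 of the 8 tested were called lower in bFGF than in OIM. These were CD14 (13.5 and 7.68 CPM in OIM and bFGF on average, called in all 9 fits without 1 library) and CD163 (1.05 and 0.571 CPM, called in 5). PTPRC, at 0.442 and 0.274 CPM, was not called. The 9 endothelial markers summed to 73.3 to 75.6 CPM in control, 87.5 to 89.3 in OIM and 170.2 to 179.7 in bFGF. Of the 9, 7 were called higher in bFGF than in OIM, where 17.7% of all genes were called higher. ERG made up most of that sum (66.8 and 137 CPM in OIM and bFGF on average), PECAM1 had 11.8 and 20.7 CPM, and VWF 0.303 and 0.228 CPM. The 5 smooth muscle markers summed to 7180 to 7522 CPM in control, 7481 to 10220 in OIM and 823.9 to 929.2 in bFGF. All 5 were called lower in bFGF than in OIM, where 18.4% of all genes were called lower. In OIM against control 2 of the 5 were called higher (1.49% of all genes), DES (log2 fold change 3.33) and MYH11 (1.13). OIM replicate 2, the highest OIM library in the 10 cytokine and chemokine genes, was the lowest OIM library in these 5. The part of leukocyte, endothelial and smooth muscle transcripts in the cytokine results was not tested.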

How the data were processed

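PVIC RNA was sequenced in 3 groups of 3 libraries, assigned from the sample titles. Per the paper's methods the authors trimmed reads with Cutadapt and mapped them to susScr11 with STAR, whereas the submitters' processing notes name Trimmomatic, HISAT2, StringTie and Sscrofa11.1. The paper gives 48 hours of treatment and poly-A selection, and the labels 3 days and removal of ribosomal RNA. The counting program and its use of strand are not given in the sources used here. The authors deposited 1 table of counts that were not normalized: 19535 gene rows of whole-number counts, and 16067 rows of non-coding transcripts (estimated counts) and circRNAs, which were not tested. It has 19 columns without name or value.

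The 13662 genes that passed filterByExpr were scaled with TMM, and the 3 groups were compared by edgeR's quasi-likelihood test (edgeR 4.0.16, R 4.3.3), with Benjamini-Hochberg adjustment over all genes tested. The standard error was taken from the fold change and its F statistic. edgeR's common coefficient of biological variation was 0.0602. Depth limits only low genes, and 3 counts per library served as the floor. No replicate pair matched within counting noise (chi-square per gene of 4.66 or more). The pairs with OIM replicate 2 had the highest values, 18.83 and 18.88, against 5.83 for OIM replicates 1 and 3. On simulated counts for bFGF against OIM with 200 genes changed by a log2 fold of 1, 173 (86.5%) of them were recovered, with 4 false calls among 13488 genes.

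Positions, exon lengths, start regions and 3′ UTRs came from RefSeq models of Sscrofa11.1, the build of the files. The genes, lists and motifs were chosen with earlier results of these data known. In lists other than the receptors, genes were named if among the 3 largest called changes in a comparison and direction, without overlap and averaging 10 counts or more in the group where they were higher. SOCS1, SOCS3, CLCF1, CNTF, NFKB1, RELA, the other gp130 pathway genes given as lower, the calpains and the markers given were named after their values were seen. Alternatives were DESeq2 1.42.0, other normalizations, filters, fold limits and fits, a replicate block and leaving out each library.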

Additional observations from a re-analysis of the deposited data

How the results depend on the processing

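The numbers of the 10 genes called in bFGF against OIM (5 higher, 2 lower) and in bFGF against control (6 and 2) held within 1.5 times under every alternative run except the fold limits. Without a fold limit, 4 were lower in each of these comparisons, and with a log2 limit of 1, 1 was lower in bFGF against OIM. In OIM against control, 2 were higher and 3 lower without a fold limit, 0 were lower with a limit of 1 or in DESeq2 (also 0 on unadjusted p-values), and leaving out single libraries gave 0 to 2 lower. The replicate block moved none of these counts (5 higher and 2 lower in bFGF against OIM). Same-numbered libraries did not deviate together (correlations of -0.032 to 0.0035), so the numbers were not taken as pairs, and 0 of the 9 libraries correlated best with its own number. The log2 fold change of IL33, OIM against NC (control), was -0.0013 and turned to 0.0019 with library totals, 0.0055 with median-of-ratios factors and 0.00593 in DESeq2, and ran from -0.031 to 0.030 when single libraries were left out (0.004538 without control replicate 1, 0.0029 without control replicate 3). With library totals IL33 stood at 0.044 in bFGF against OIM and 0.046 in bFGF against control. The same value of IL6 ran from -0.010 without OIM replicate 2 to 0.17 without OIM replicate 1. The causes of these shifts were not tested. The order of genes per kb kept at least 8 of 10 places in each alternative. Library totals alone moved the calls over all genes in bFGF against OIM from 2420 higher and 2519 lower to 3733 and 1694, and in bFGF against control from 2584 and 2739 to 3931 and 1840. Low counts limit CXCL14 in bFGF.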

Other observations

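The table also lists 2 circRNAs whose spans overlap the locus of CCL2. Whether they arise from CCL2 was not tested. Together they had 2 to 4 junction counts in the control libraries, 0 to 8 in OIM and 3 to 8 in bFGF, so the groups overlapped.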
